A study of Arabidopsis thaliana with 27 samples.

Results

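The expansin and XTH genes are 2 large gene families of Arabidopsis whose proteins loosen or rebuild the wall of growing cells. The 37 genes described here, 13 EXPA and 2 EXPB expansins and 22 XTH genes (XTH4 to XTH9, XTH15 to XTH25, XTH28 and XTH30 to XTH33), were taken by their gene IDs from a table of read counts for 34262 genes. RNA of whole seedlings was sequenced in 27 libraries, 3 in each of 9 groups, each library made from a separate pool of seedlings. The groups crossed 3 genotypes with 3 lights. The genotypes were the triple mutant *pif457* (*pif4-101 pif5-3 pif7-1*), the mutant *hfr1-101* and the wild type Col-0. The lights were a high ratio of red to far-red light (HRFR), and a low ratio (LRFR) for 1 h or for 25 h. The low ratio simulated neighbouring plants and was made by adding far-red light to white light. Seedlings grew in cycles of light and dark, and the 25 h span included a night. All seedlings were 7 days old and were collected at the same hour of the day, 3 h after lights on.

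An expansin slips between cellulose and xyloglucan, the main crosslinking sugar polymer of the wall, and lets the wall creep without cutting it; it works best in the acid wall that plasma membrane proton pumps make. An XTH cuts a xyloglucan chain and joins the new end to another chain, or in a few cases to water, so it can both loosen a wall and knit new material into it. In shade, LRFR inactivates the photoreceptor phytochrome B, which lets the transcription factors PIF4, PIF5 and PIF7 act, and stems and petioles then elongate. HFR1 is a related protein that pairs with PIFs and keeps them from DNA.

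The libraries held 24857067 to 34863803 reads in genes. Levels are given as CPM, reads in a gene relative to the TMM-scaled total of its library, and as CPM per kb of exon where genes are set side by side. Of the 37 genes, 36 had enough reads to be tested among 20887 genes. The exception was *EXPA2*, an expansin of germinating seeds, with 51 reads over all libraries and 0 in 13 of them. *PIF5* had 12.8 ± 1.19 CPM in *pif457* and 156 ± 9.62 CPM in Col-0 under HRFR (SD, n = 3 each), and *PIF7* had 3.24 ± 0.546 and 51.0 ± 2.26 CPM, while *PIF4*, at 50.7 ± 0.0255 and 104 ± 2.39 CPM, was lower but not lost. *HFR1* reads were not lower in the libraries labelled *hfr1-101*, with 19.8 ± 0.408 CPM under HRFR and 211 ± 18.7 CPM at LRFR 25 h, against 15.6 ± 2.47 and 142 ± 9.38 CPM in Col-0, so this transcript does not check that label. The shade marker *PIL1*, an HLH gene, had 37.2 ± 12.0 CPM at LRFR 1 h against 0.414 ± 0.0969 CPM under HRFR in Col-0. A pair of Col-0 libraries, replicate 1 of HRFR and replicate 1 of LRFR 25 h, stood apart from the rest on the main axis of differences within groups. Their summed level of 8 root markers was 5540 and 5480 CPM, against 2980 to 4900 CPM in the other 25 libraries. The sum is mostly *PYK10*, at 2840 to 5290 CPM over all libraries, while each other root marker was at or below 84.6 CPM. Col-0 LRFR 25 h replicate 1 also had the lowest sum of 4 shoot (leaf) markers, 25900 CPM, against 31800 to 44100 CPM in the other libraries. Col-0 HRFR replicate 1, at 37400 CPM, lay within that range. The part of these differences in the results below was not tested beyond leaving that pair of Col-0 libraries out. In RNA of whole seedlings, fewer cells of a type and less RNA per cell cannot be told apart.

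In Col-0 under HRFR the mean levels of the members ran from 0.189 to 295 CPM per kb. *XTH6*, *XTH7* and *EXPA1* had the highest levels per length, at 295 ± 56.9, 281 ± 43.0 and 236 ± 21.0 CPM per kb (SD, n = 3), and *XTH4* followed at 223 ± 21.0 CPM per kb. The ranges of these 4 genes overlapped from each one to the next, so their order is not settled. *EXPA1* (AT1G69530) is an expansin known from guard cells and lateral roots, and *XTH4* acts in the walls of stems. Below them *XTH24*, *XTH31* and *EXPA6* lay at 136 ± 26.4, 107 ± 14.5 and 81.0 ± 3.41 CPM per kb. At the other end *XTH20*, *EXPA16* and *XTH25* had 1.96 ± 0.416, 1.72 ± 0.283 and 1.07 ± 0.136 CPM per kb, and *XTH25* rested on 5 to 50 reads per library.

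**Figure D1:**
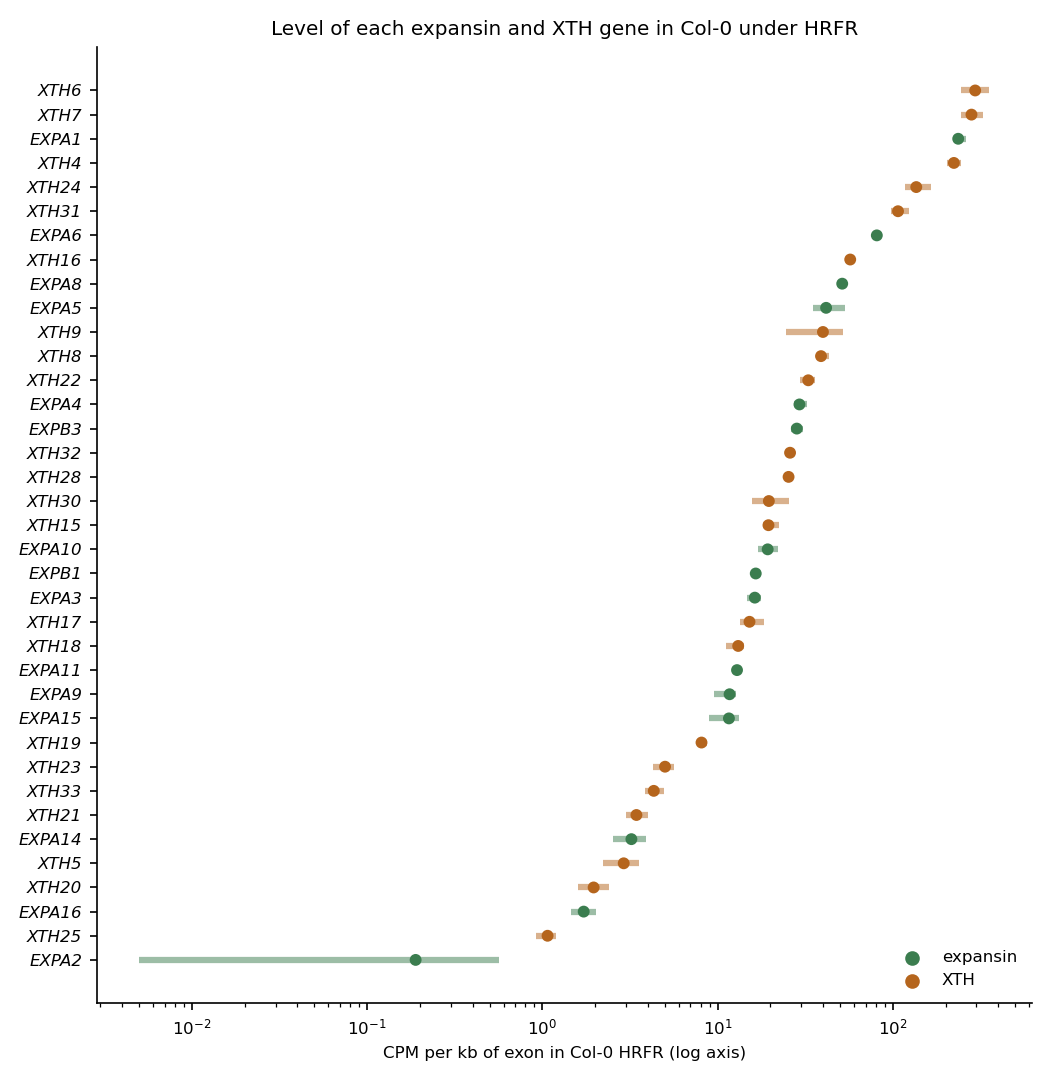
CPM per kb of exon of the 37 expansin (green) and XTH (brown) genes in Col-0 under HRFR, on a log axis; points are means of 3 libraries and bars run from the lowest to the highest library (drawn from 0.005 where the lowest was 0). *XTH6*, *XTH7*, *EXPA1* and *XTH4* lie between 223 and 295 CPM per kb and *EXPA2* at 0.189 CPM per kb.

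Added over each family, the levels of expansins in *pif457* were 474 ± 33.5 CPM per kb in HRFR, 484 ± 29.8 after 1 h of LRFR and 492 ± 12.2 after 25 h (SD, n = 3 each). In Col-0 they were 561 ± 24.9, 627 ± 96.1 and 681 ± 9.64 CPM per kb. The highest *pif457* library lay below the lowest Col-0 library in each light. The XTH sums were 1160 ± 63.7, 1260 ± 36.6 and 1090 ± 26.8 CPM per kb in *pif457*, against 1360 ± 164, 1180 ± 111 and 1290 ± 169 CPM per kb in Col-0. The ranges of the XTH sum overlapped between these genotypes in HRFR and at LRFR 1 h, and at LRFR 25 h they did not. Neither sum was tested, and both are carried by the few genes of highest level.

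Which wall genes respond to an hour of shade was asked by setting LRFR 1 h against HRFR in Col-0, where a gene was called at an adjusted p below 0.05 and a log2FC beyond 0.6 in either direction (edgeR quasi-likelihood test, Benjamini-Hochberg over 20887 genes). 3 of the 36 members rose, *XTH22*, *XTH33* and *EXPB1*, where 1.42% of all genes did, and *XTH24* fell, where 0.685% did. The other 32 members had log2FC between -0.60 and 0.56, and the median of the 36 was -0.01, the same as the -0.01 of all genes. *EXPA3*, *XTH7* and *EXPA11* passed the adjusted p but not the fold, with log2FC of -0.52, -0.43 and -0.40.

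*XTH22* (AT5G57560), known as TCH4 because touch induces it, had 107, 131 and 110 CPM at LRFR 1 h, against 57.1, 47.1 and 52.7 CPM under HRFR in Col-0. Every shaded library lay above every HRFR library, and the log2FC was 1.14 (SE 0.19, edgeR adjusted p = 0.000179). The call held in all 34 alternative analyses. 7 other touch and handling genes, the calmodulin-like *TCH2* and *TCH3* among them, summed to 107 to 131 CPM at LRFR 1 h and 90.1 to 121 CPM under HRFR in Col-0, and none of the 7 was called (edgeR). Their part in the *XTH22* result was not tested.

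*EXPB1* (AT2G20750), a beta-expansin, had 39.2, 35.4 and 43.9 CPM at LRFR 1 h, against 24.7, 26.1 and 24.6 CPM under HRFR in Col-0. The groups did not overlap, and the log2FC was 0.65 (SE 0.09, edgeR adjusted p = 3.07e-05). Without Col-0 LRFR 1 h replicate 3 the adjusted p was 0.000327 but the log2FC was 0.58, under the fold threshold. *XTH33* (AT1G10550), which carries a predicted membrane anchor, had 7.79, 8.96 and 10.5 CPM against 6.01, 4.99 and 4.67 CPM. All its shaded libraries lay above all HRFR libraries (log2FC 0.79, SE 0.19, edgeR adjusted p = 0.0104), and the call was lost without Col-0 HRFR replicate 3 (log2FC 0.73, adjusted p = 0.0628).

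*XTH24* (AT4G30270), an XTH first known from meristems, had 93.9, 96.7 and 119 CPM at LRFR 1 h, against 201, 141 and 151 CPM under HRFR in Col-0. The groups did not overlap (log2FC -0.67, SE 0.17, edgeR adjusted p = 0.0164), but the highest HRFR value came from replicate 1, a library that stood apart. The call was lost without that library (log2FC -0.50, adjusted p = 0.158), without Col-0 LRFR 1 h replicate 1 (-0.61, adjusted p = 0.104) or replicate 2 (-0.63, adjusted p = 0.0909), without both libraries that stood apart (-0.50, adjusted p = 0.0362, under the fold threshold), and in a fit of these 6 libraries alone (-0.66, adjusted p = 0.0511).

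**Figure D2:**
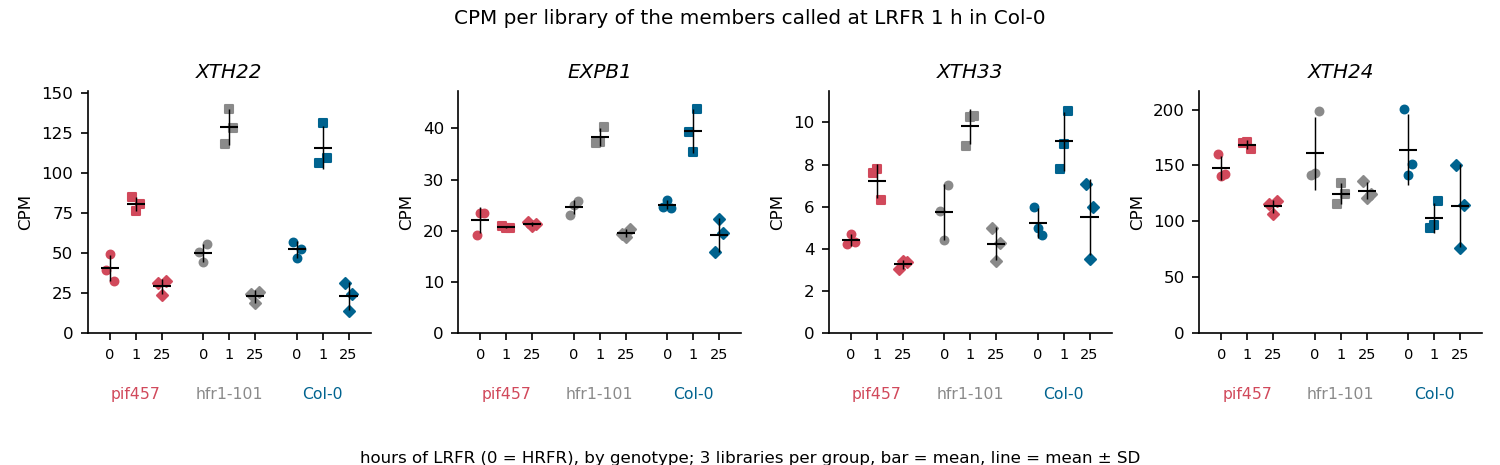
CPM of *XTH22*, *EXPB1*, *XTH33* and *XTH24* in each of the 27 libraries, by genotype and hours of LRFR (0 is HRFR); points are libraries, bars are means of 3 and lines are the SD. *XTH22* is at 76.4 CPM or more in every LRFR 1 h library of every genotype, whereas *EXPB1* is between 20.5 and 20.9 CPM at LRFR 1 h in *pif457*, against 35.4 to 43.9 CPM in Col-0.

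After 25 h of LRFR the members called in Col-0 were largely others. *EXPA8*, *EXPA3* and *XTH17* rose, 3 of 36 members where 2.38% of all genes rose, and *XTH22*, *XTH9* and *XTH25* fell, where 1.66% of all genes fell. The other 30 members lay between -0.53 and 0.38 in log2FC, and the median of the 36 was 0.10 against 0.00 for all genes. *XTH18* and *XTH32* passed the adjusted p with rises of 0.37 and 0.38, and *EXPB1* and *XTH24* with log2FC of -0.39 and -0.53, all within the fold threshold.

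*EXPA8* (AT2G40610), an alpha-expansin, had 182, 169 and 147 CPM at LRFR 25 h, against 72.7, 67.4 and 64.2 CPM under HRFR in Col-0. The lowest shaded library had over 2 times the level of the highest HRFR library, and the log2FC of 1.29 (SE 0.22, edgeR adjusted p = 0.000231) was called in every alternative. *EXPA3* (AT2G37640), another alpha-expansin, had 52.5, 56.9 and 37.4 CPM against 31.6, 26.3 and 29.2 CPM. Its groups did not overlap (log2FC 0.75, SE 0.14, edgeR adjusted p = 0.000535), and the call was lost only in a fit of these 6 libraries alone (adjusted p = 0.0606). *XTH17* (AT1G65310), an XTH whose loss impairs petiole elongation in shade, had 34.6, 27.7 and 32.9 CPM against 22.8, 17.1 and 16.7 CPM. All its shaded libraries were higher (log2FC 0.75, SE 0.12, edgeR adjusted p = 6.63e-05), in every alternative.

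*XTH22*, the member that rose most at LRFR 1 h, had only 31.4, 13.8 and 24.6 CPM at LRFR 25 h, against 57.1, 47.1 and 52.7 CPM under HRFR in Col-0. Its 3 LRFR 25 h libraries lay below all HRFR libraries (log2FC -1.17, SE 0.19, edgeR adjusted p = 0.000163), a call lost in a fit of these 6 libraries alone (adjusted p = 0.0737). The 7 touch and handling genes summed to 69.3 to 80.3 CPM at LRFR 25 h and 90.1 to 121 CPM under HRFR, and 1 of the 7 fell; their part was not tested.

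*XTH9* (AT4G03210), an XTH of stems and shoot tips, had 28.2, 38.6 and 43.9 CPM at LRFR 25 h, against 37.5, 78.7 and 66.5 CPM under HRFR in Col-0. The ranges overlapped through HRFR replicate 1 (log2FC -0.72, SE 0.22, edgeR adjusted p = 0.0329). The call was lost without HRFR replicate 2 (log2FC -0.50, adjusted p = 0.22) or 3 (-0.65, adjusted p = 0.119), without LRFR 25 h replicate 1 (-0.55, adjusted p = 0.124) or 2 (-0.75, adjusted p = 0.0626), and in a fit of these libraries alone (adjusted p = 0.304). *XTH25* (AT5G57550), the neighbour of *XTH22* on chromosome 5, had 0.666, 0.244 and 0.450 CPM against 1.40, 1.09 and 1.31 CPM. The groups did not overlap at these low counts (log2FC -1.47, SE 0.42, edgeR adjusted p = 0.0237), and the call was lost without HRFR replicate 1 (log2FC -1.39, adjusted p = 0.0616) or 3 (-1.44, adjusted p = 0.0611), without LRFR 25 h replicate 2 (-1.19, adjusted p = 0.112) or 3 (-1.45, adjusted p = 0.0688), and in a fit of these libraries alone (adjusted p = 0.0902).

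Set directly against LRFR 1 h in Col-0, LRFR 25 h had 5 members higher, where 2.66% of all genes were, and 4 lower, where 2.36% were (edgeR, same thresholds). The 5 were *EXPA3*, *XTH17*, *EXPA5*, *EXPA8* and *EXPA11*, with log2FC of 1.27, 0.83, 0.81, 0.74 and 0.72. All but *XTH17* are alpha-expansins. In the same comparison the median log2FC was 0.45 over the 8 root markers and -0.41 over the 4 shoot markers, with none called (edgeR). The part of root and shoot RNA in the called members was not tested. *EXPA5* (AT3G29030), known as a target of brassinosteroids, had 92.8, 74.3 and 62.1 CPM at LRFR 25 h, against 42.7, 39.5 and 48.2 CPM at LRFR 1 h, while HRFR lay between them with 75.8, 49.7 and 52.6 CPM. Its highest values at LRFR 25 h and under HRFR came from the replicate 1 libraries that stood apart. *EXPA3*, *EXPA5* and *EXPA11* each had a lower mean at LRFR 1 h than under HRFR, though none of these dips was called, and each had its highest mean at LRFR 25 h. The 4 lower genes were *XTH22*, *XTH9*, *EXPB1* and *XTH33*, with log2FC of -2.31, -1.05, -1.04 and -0.71. The *EXPA8* call was lost without LRFR 1 h replicate 1 (log2FC 0.60, adjusted p = 0.14) or 2 (0.57, adjusted p = 0.146), without LRFR 25 h replicate 1 (0.68, adjusted p = 0.0586) or 2 (0.73, adjusted p = 0.0514), and in a fit of these 6 libraries (adjusted p = 0.169); at LRFR 1 h *EXPA8* had 77.6, 74.2 and 146 CPM, and the third library alone came near the lowest LRFR 25 h level of 147 CPM. *EXPA11* was lost without LRFR 25 h replicate 2 (0.54, under the fold threshold), and *XTH33* without LRFR 1 h replicate 3 (-0.60, adjusted p = 0.0527) or LRFR 25 h replicate 2 (-0.48, adjusted p = 0.0743) and in a fit of these 6 libraries (adjusted p = 0.188).

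**Figure D3:**
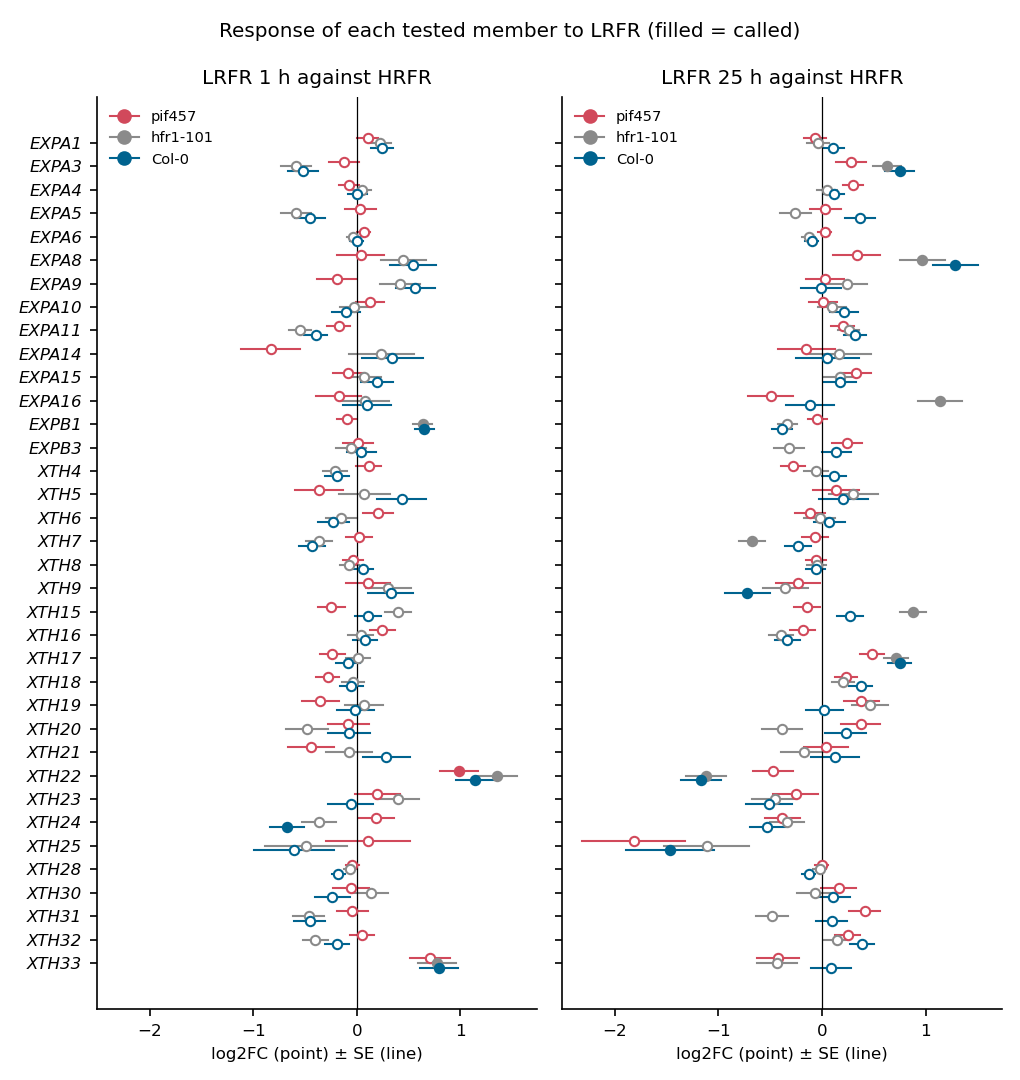
log2FC of LRFR 1 h (left) and LRFR 25 h (right) against HRFR for the 36 tested members in *pif457*, *hfr1-101* and Col-0; points are fitted values, lines are 1 SE, and filled points were called. *XTH22* lies right of 0 at LRFR 1 h (0.99 in *pif457*, 1.14 in Col-0) and left of 0 at LRFR 25 h (-0.47 in *pif457*, not called, and -1.17 in Col-0).

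The start regions of the members were read from RefSeq's TAIR10.1 genome to see whether they hold the letters PIFs are known to bind, the G-box CACGTG or the PBE-box CACATG, on either strand. In the 300 bases from 250 before to 50 after the annotated start, 0 of the 37 held a G-box, against 7.68% of 27443 protein-coding genes, and 8 held a PBE-box, against 12.9%. Over 1000 bases upstream, 5 held a G-box and 19 a PBE-box, against 14.8% and 37.7% of genes. Of the members that rose in Col-0, *EXPA3* and *XTH33* held 3 PBE-boxes each over those 1000 bases, *EXPA8* 2 and *XTH17* 1. *XTH22* and *EXPB1* held neither motif over the 1000 bases. In the shorter window *XTH33* and *XTH17* held a PBE-box, and *XTH22*, *EXPB1*, *EXPA8* and *EXPA3* held neither motif. A match is a description of letters and not a measured binding site. The stretches below hold these matches, 120 bases each and 5′ to 3′ on the gene's own strand, with the PBE-box (CATGTG on its other strand) in capitals. That of *XTH17* is chr1:24256934-24257053 on the plus strand and that of *XTH33* chr1:3481172-3481291 on the minus strand. *XTH18*, at chr4:14827212-14827331 on the minus strand, was added after its values were seen, because it is the nearest copy of *XTH17*.
XTH17: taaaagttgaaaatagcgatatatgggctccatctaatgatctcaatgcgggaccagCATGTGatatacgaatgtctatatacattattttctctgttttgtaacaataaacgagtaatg
XTH18: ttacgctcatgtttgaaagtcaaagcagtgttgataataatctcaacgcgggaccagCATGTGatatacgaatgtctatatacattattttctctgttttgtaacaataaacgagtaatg
XTH33: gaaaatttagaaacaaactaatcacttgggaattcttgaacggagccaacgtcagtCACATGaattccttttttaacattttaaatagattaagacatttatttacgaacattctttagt

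The stretches of *XTH17* and *XTH18* end at the base before each gene's start, and their PBE-box begins 63 bases before it. The last 60 bases were identical and the last 75 matched at 74, while over all 120 bases 92 matched. Their coding sequences were 92.2% identical, yet only 0.182% of the 50-base words of *XTH17* exons and 1.7% of those of *XTH18* occurred in another gene of these families, so reads of both could largely be placed. With nearly the same letters next to the start, *XTH18* had 24.7, 18.7 and 21.0 CPM at LRFR 25 h, against 18, 17.7 and 14.1 CPM under HRFR in Col-0, a log2FC of 0.37 (SE 0.11, edgeR adjusted p = 0.0244) that passed the adjusted p and not the fold, beside 0.75 for *XTH17*. The difference between these genes was not tested.

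In *pif457* shade moved few genes of any kind. At LRFR 1 h 1 of 36 members rose, *XTH22*, where 0.139% of all genes rose, and 0 fell, where 0.00958% fell. *XTH22* had 85.0, 76.4 and 80.5 CPM at LRFR 1 h, against 39.6, 49.5 and 32.9 CPM under HRFR in *pif457*. All shaded libraries were higher (log2FC 0.99, SE 0.19, edgeR adjusted p = 0.0188), and the touch and handling genes summed to 109 to 128 CPM against 91.5 to 100 CPM without overlap, with none of the 7 called. The *XTH22* call was lost without *pif457* HRFR replicate 1 (log2FC 0.97, adjusted p = 0.0958) or 3 (0.86, adjusted p = 0.219), without *pif457* LRFR 1 h replicate 1 (0.95, adjusted p = 0.0865), 2 (1.02, adjusted p = 0.0531) or 3 (0.99, adjusted p = 0.0732), and in a fit of the 18 *pif457* and Col-0 libraries (0.98, adjusted p = 0.0968). The difference of this response between *pif457* and Col-0 was -0.16 (SE 0.26, edgeR adjusted p = 0.92), an interval too wide to show that the responses are alike.

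At LRFR 25 h 0 of 36 members were called in *pif457* by edgeR, where 0.498% of all genes rose and 0.421% fell. 13 had an unadjusted p below 0.05, and DESeq2 called 1, *XTH25*, as lower (log2FC -1.84, adjusted p = 0.0156). The share of all genes at that unadjusted cut was not counted, so such counts, here and below, are not a result about the members. *XTH17* passed the adjusted p alone (log2FC 0.48, SE 0.12, edgeR adjusted p = 0.0257), with 20.9, 22.6 and 25.7 CPM at LRFR 25 h against 17.1, 16.0 and 16.5 CPM under HRFR. *EXPA8* had 57.1, 57.9 and 48.1 CPM against 45.2, 40.3 and 43.9 CPM, which did not overlap either (log2FC 0.33, SE 0.22, adjusted p = 0.614).

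The interaction asks of each gene whether the response to LRFR differed between *pif457* and Col-0. At LRFR 1 h 1 of 36 members was called, *EXPB1*, among the lower ones, where 1.16% of all genes were lower and 0.876% higher. *EXPB1* had 20.9, 20.6 and 20.5 CPM at LRFR 1 h and 19.2, 23.5 and 23.5 CPM under HRFR in *pif457*, where it did not rise beyond its spread (log2FC -0.09, SE 0.10), whereas in Col-0 it rose by 0.65. The difference of the responses was -0.75 (SE 0.13, edgeR adjusted p = 0.00148) and was called in every alternative. *XTH24* came next, at 171, 171 and 164 CPM in *pif457* at LRFR 1 h, against 93.9, 96.7 and 119 CPM in Col-0. Its interaction of 0.86 (SE 0.24, edgeR adjusted p = 0.0587) missed the threshold, while DESeq2 gave an adjusted p of 0.02 and the fit with a replicate block 0.0408. *EXPA14*, with -1.18 (SE 0.41, adjusted p = 0.222), had the largest uncalled value, at 3.52 to 10.5 CPM in the LRFR 1 h libraries of Col-0.

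At LRFR 25 h the *pif457* interaction called 0 of 36 members (edgeR), where 0.115% of all genes were higher and 0.345% lower. DESeq2 also called 0, and 6 members had an unadjusted p below 0.05. *EXPA8* had -0.95 (SE 0.31, adjusted p = 0.308), which a fit of only the 12 libraries compared put past the threshold (-0.97, adjusted p = 0.0179). So *EXPA8*, *EXPA3* and *XTH17* were called at LRFR 25 h in Col-0 and not in *pif457*, but their responses were not shown to differ.

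Set against Col-0 in the same light, *pif457* had fewer reads of several expansins. Under HRFR 3 of 36 members were lower, all alpha-expansins, where 1.69% of all genes were, and 0 were higher, where 1.01% were (edgeR, adjusted p below 0.05). *EXPA3* had 19.9, 17.1 and 20.9 CPM in *pif457* against 31.6, 26.3 and 29.2 CPM in Col-0, and *EXPA11* had 11.3, 11.6 and 13.5 CPM against 17.4, 17.3 and 17.3 CPM. Neither overlapped, with log2FC of -0.59 (SE 0.14, adjusted p = 0.0258) and -0.51 (SE 0.11, adjusted p = 0.00948). *EXPA6*, a strongly expressed alpha-expansin, was lower by a smaller step, -0.26 (SE 0.06, adjusted p = 0.0265). DESeq2 called 3 more as higher, *EXPA9*, *EXPA14* and *EXPA15* (log2FC 0.61, 1.00 and 0.51).

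Each of these HRFR calls was lost in some alternative. *EXPA3* was lost without Col-0 HRFR replicate 1 (log2FC -0.53, adjusted p = 0.139) or 3 (-0.58, adjusted p = 0.063), without *pif457* HRFR replicate 2 (-0.51, adjusted p = 0.158) or 3 (-0.65, adjusted p = 0.0541), and in the fit of 18 libraries (-0.59, adjusted p = 0.0539). *EXPA11* was lost without *pif457* HRFR replicate 2 (-0.48, adjusted p = 0.0672). *EXPA6* was lost without Col-0 HRFR replicate 1 (-0.23, adjusted p = 0.151) or 3 (-0.26, adjusted p = 0.063), without *pif457* HRFR replicate 1 (-0.24, adjusted p = 0.0731), 2 (-0.26, adjusted p = 0.107) or 3 (-0.29, adjusted p = 0.0538), and in a fit of these libraries alone (adjusted p = 0.0857). Without both Col-0 libraries that stood apart, 1 of the 3 remained called, *EXPA11*.

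At LRFR 1 h 3 members were lower in *pif457*, where 2.41% of all genes were, and 1 was higher, where 1.8% were. *EXPA8* had 34.3, 40.3 and 58.1 CPM in *pif457*, against 77.6, 74.2 and 146 CPM in Col-0. The groups did not overlap (log2FC -1.16, SE 0.22, edgeR adjusted p = 0.00146). *EXPB1* differed by -0.93 (SE 0.09, edgeR adjusted p = 1.41e-07) and *EXPA1* by -0.41 (SE 0.11, adjusted p = 0.0227), and *XTH24* was the higher one (0.71, SE 0.17, adjusted p = 0.0105).

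*EXPA1* had 305, 320 and 356 CPM in *pif457* and 378, 389 and 534 CPM in Col-0 at LRFR 1 h. Its call was lost without Col-0 LRFR 1 h replicate 3 (log2FC -0.25, adjusted p = 0.174), without *pif457* LRFR 1 h replicate 1 (-0.36, adjusted p = 0.118) or 2 (-0.39, adjusted p = 0.102), and in the fits of the 18 libraries (adjusted p = 0.0596) or of these 6 (adjusted p = 0.114). *XTH24* was lost without Col-0 LRFR 1 h replicate 1 (0.65, adjusted p = 0.0682) or 2 (0.67, adjusted p = 0.0613). *XTH22*, the touch gene, had 85.0, 76.4 and 80.5 CPM in *pif457*, against 107, 131 and 110 CPM in Col-0, and was not called (-0.52, SE 0.18, adjusted p = 0.137).

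The contrast was widest at LRFR 25 h, where 9 of 36 members were lower in *pif457* against 4.04% of all genes, and 3 were higher against 2.83%. Of the 14 tested expansins 6 were lower and 2 higher, and of the 22 XTH genes 3 were lower and 1 higher. The median over the 36 was -0.09, against 0.00 for all genes. The expansins that were lower were *EXPA8*, *EXPA3*, *EXPA5*, *EXPA11*, *EXPA10* and *EXPA1*, all alpha-expansins. The 8 root markers summed to 2980 to 3420 CPM in *pif457* and 3090 to 5480 CPM in Col-0 at LRFR 25 h, highest in Col-0 replicate 1. These sums are mostly *PYK10*, while the median log2FC over the 8 genes was -0.53, with none called (edgeR). The *EXPA1*, *EXPA10* and *XTH17* differences were no larger than this median. The same median was -0.32 in HRFR and -0.27 at LRFR 1 h, and the part of root RNA in the lower or the higher members was not tested.

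*EXPA8* had 57.1, 57.9 and 48.1 CPM in *pif457* at LRFR 25 h, against 182, 169 and 147 CPM in Col-0. *EXPA3* had 25.0, 22.01 and 23.3 CPM against 52.5, 56.9 and 37.4 CPM. In both, every *pif457* library lay far below every Col-0 library, with log2FC of -1.61 (SE 0.22, edgeR adjusted p = 5.13e-05) and -1.06 (SE 0.14, edgeR adjusted p = 2.59e-05), and both calls held in every alternative. *EXPA5* had 44.9, 41.5 and 47.3 CPM against 92.8, 74.3 and 62.1 CPM (log2FC -0.78, SE 0.15, adjusted p = 0.00207), also in every alternative. *EXPA11* had 13.8, 14.2 and 13.8 CPM against 18.6, 26.7 and 19.6 CPM (log2FC -0.63, SE 0.11, adjusted p = 0.000522), a call lost in a fit of these 6 libraries alone (adjusted p = 0.0696). *EXPA10*, known from leaf growth, and *EXPA1* were lower by less, with log2FC of -0.45 (SE 0.13) and -0.45 (SE 0.11).

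Among XTH genes, *XTH4* (AT2G06850) had 242, 225 and 252 CPM in *pif457*, against 470, 315 and 382 CPM in Col-0 at LRFR 25 h, without overlap (log2FC -0.70, SE 0.12, edgeR adjusted p = 0.000547). *XTH4* was called in neither light against HRFR in these genotypes, although in *pif457* its LRFR 25 h libraries lay below the 290, 285 and 297 CPM of HRFR (log2FC -0.28, edgeR adjusted p = 0.294). *XTH17* had 20.9, 22.6 and 25.7 CPM against 34.6, 27.7 and 32.9 CPM (log2FC -0.46, SE 0.11, adjusted p = 0.0169), and *XTH33* had 3.03, 3.45 and 3.36 CPM against 7.07, 3.54 and 5.97 CPM (log2FC -0.75, SE 0.20, adjusted p = 0.0256). Neither overlapped, though for *XTH33* the nearest libraries were 3.45 and 3.54 CPM.

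The 3 higher members were *XTH9*, *EXPA15* and *EXPA9*. *XTH9* had 68.9, 71.4 and 74.4 CPM in *pif457*, against 28.2, 38.6 and 43.9 CPM in Col-0, and *EXPA15* (AT2G03090), an alpha-expansin, had 29.4, 32.3 and 27.01 CPM against 16.7, 18.2 and 21.4 CPM. Both were without overlap, with log2FC of 0.96 (SE 0.22, edgeR adjusted p = 0.0102) and 0.66 (SE 0.15, edgeR adjusted p = 0.0106). *EXPA9* had 24.2, 26.8 and 22.8 CPM against 11.7, 17.1 and 18.5 CPM (log2FC 0.65, SE 0.19, adjusted p = 0.0399).

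**Figure D4:**
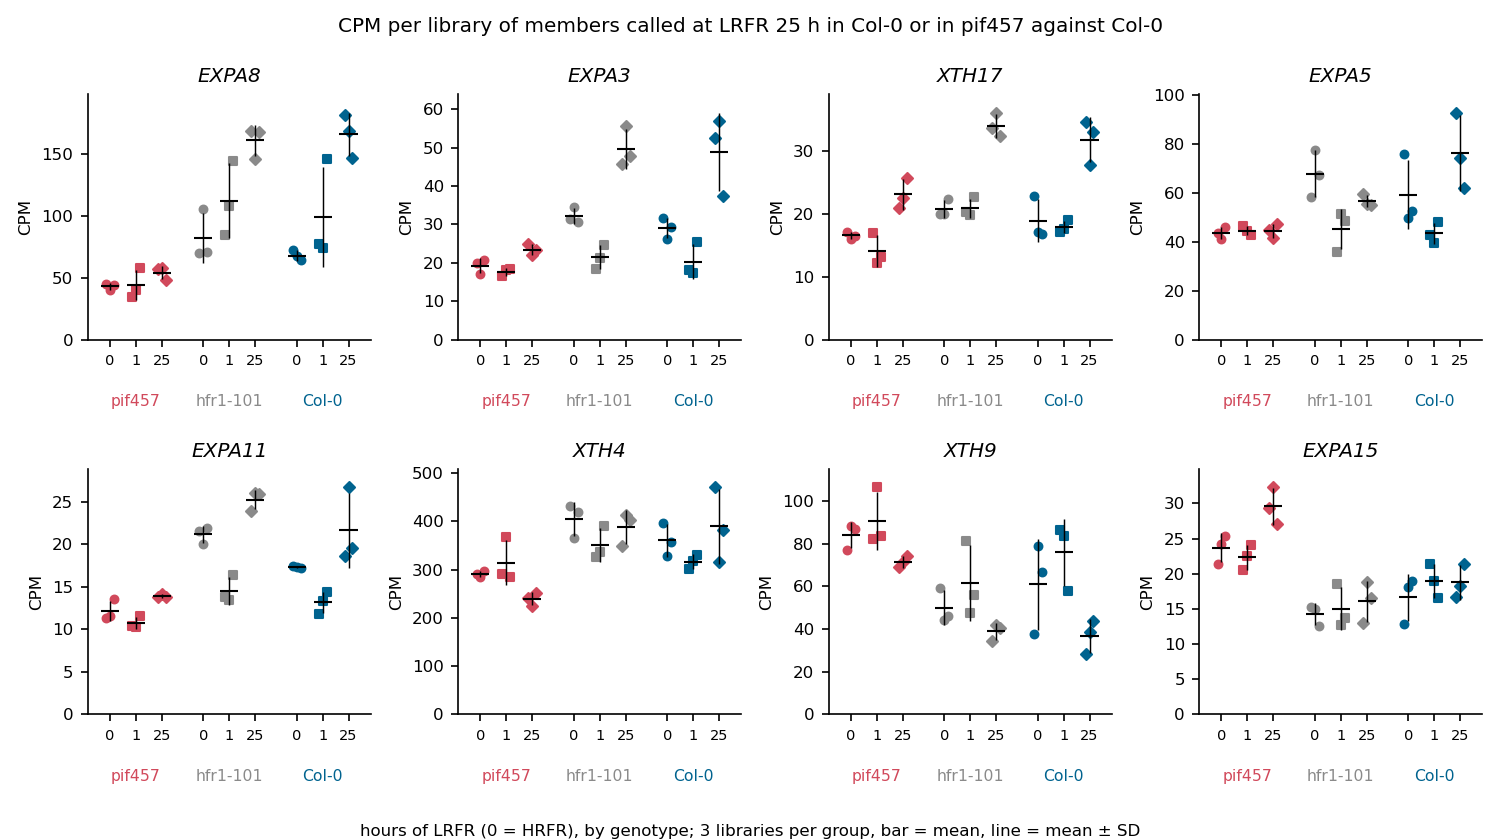
CPM of 8 members in each of the 27 libraries, by genotype and hours of LRFR (0 is HRFR); points are libraries, bars are means of 3 and lines are the SD. At 25 h *EXPA8* is at 147 to 182 CPM in Col-0 and at 48.1 to 57.9 CPM in *pif457*, while *XTH9* is at 68.9 to 74.4 CPM in *pif457* and 28.2 to 43.9 CPM in Col-0.

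Several of these differences at LRFR 25 h were no longer called when 1 of the 6 libraries was left out. Once the Col-0 replicate 1 that stood apart was left out, *EXPA9* (log2FC 0.46, adjusted p = 0.173), *EXPA10* (-0.33, adjusted p = 0.195), *XTH9* (0.79, adjusted p = 0.0512), *XTH17* (-0.40, adjusted p = 0.0648) and *XTH33* (-0.55, adjusted p = 0.142) were no longer called. *XTH33* was also lost without Col-0 LRFR 25 h replicate 3 (-0.71, adjusted p = 0.0537). Leaving out a *pif457* LRFR 25 h library ended *EXPA9* (0.66, 0.58 and 0.70 without replicates 1, 2 and 3), *EXPA10* (-0.48, -0.45 and -0.43), *XTH33* (-0.70, -0.79 and -0.77), *XTH17* (-0.40 and -0.44 without 1 and 2), *EXPA1* (-0.45 and -0.42 without 2 and 3) and *EXPA15* (0.59 without 2), with adjusted p of 0.0514 to 0.15. *EXPA10* was also lost without *hfr1-101* LRFR 25 h replicate 2 or 3, which set only the shared spread (-0.45, adjusted p = 0.0511 and 0.0502). A fit of these 6 libraries alone kept 5 of the 12 calls.

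**Figure D5:**
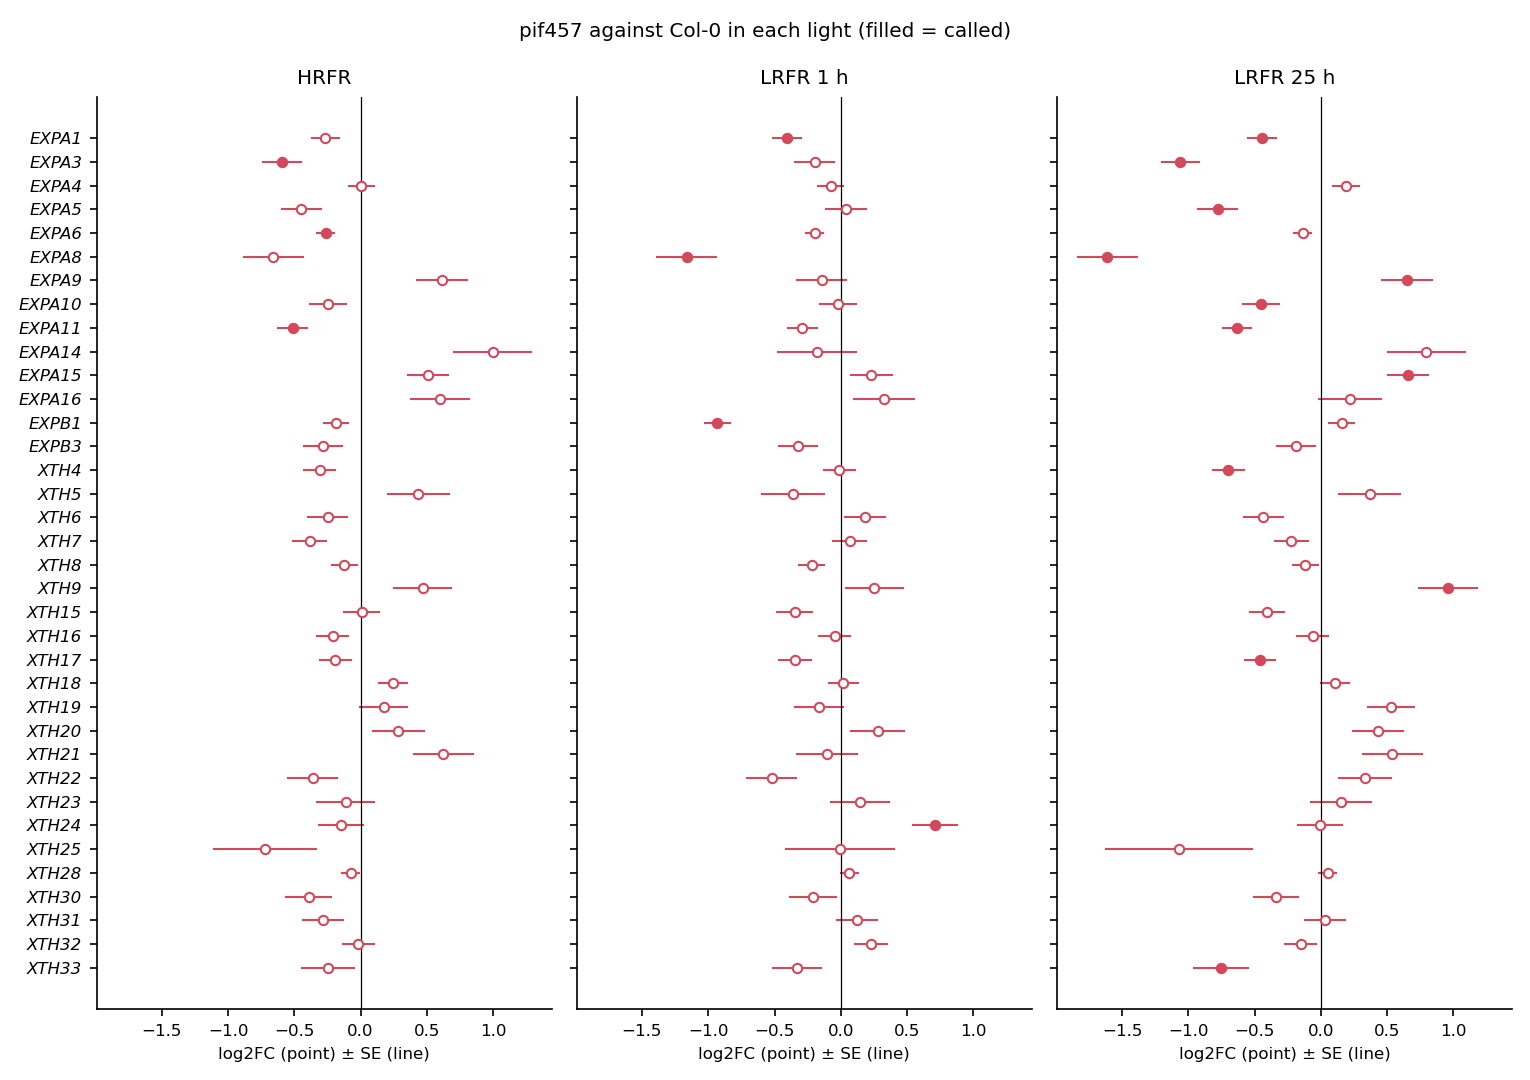
log2FC of *pif457* against Col-0 for the 36 tested members under HRFR and after 1 h and 25 h of LRFR; points are fitted values, lines are 1 SE, and filled points were called. The filled points number 3, 4 and 12, and *EXPA8* lies left of 0 in each light (-0.66, not called, then -1.16 and -1.61).

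In the libraries labelled *hfr1-101* the response at LRFR 1 h named the same 3 members as rising, *XTH22*, *XTH33* and *EXPB1* (log2FC 1.36, 0.77 and 0.63), where 1.62% of all genes rose, and 0 fell, where 0.876% fell. *XTH22* had 118, 140 and 128 CPM at LRFR 1 h, against 51.0, 44.3 and 55.4 CPM under HRFR in *hfr1-101* (edgeR adjusted p = 1.59e-05), with the touch and handling genes at 108 to 159 against 95.6 to 115 CPM. The *EXPB1* rise went under the fold threshold without *hfr1-101* HRFR replicate 1 (0.59) or LRFR 1 h replicate 3 (0.60), and that of *XTH33* was lost without HRFR replicate 2 (0.63, adjusted p = 0.087).

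At LRFR 25 h 5 members rose in *hfr1-101*, where 3.35% of all genes rose, and 2 fell, where 3.26% fell (edgeR). *EXPA8*, *XTH17* and *EXPA3* rose as named in Col-0 (log2FC 0.97, 0.71 and 0.62), and *XTH22* fell (-1.12). The touch and handling genes summed to 74.6 to 79.5 CPM at LRFR 25 h and 95.6 to 115 CPM under HRFR in *hfr1-101*, without overlap, and *TCH3* fell (log2FC -0.89, edgeR adjusted p = 0.000467). Their part in the *XTH22* result was not tested. *EXPA16* (AT3G55500), a weakly expressed alpha-expansin, and *XTH15* (AT4G14130), whose loss impairs petiole elongation in shade, also rose (1.14 and 0.88), and *XTH7*, 1 of the most abundant members, fell (-0.68) with 247, 221 and 239 CPM at LRFR 25 h, against 355, 366 and 411 CPM under HRFR. The *EXPA3* rise was under the fold threshold without *hfr1-101* HRFR replicate 3 (0.59) or LRFR 25 h replicate 2 (0.54).

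Against Col-0, *hfr1-101* differed in 0 of 36 members under HRFR by edgeR and by DESeq2, with 2 at an unadjusted p below 0.05, where 0.0575% of all genes were higher and 0.0239% lower. At LRFR 1 h both tools again called 0, with 7 at an unadjusted p below 0.05, where 0.139% of all genes were higher and 0.0383% lower. At LRFR 25 h edgeR called 2 members higher, where 0.177% of all genes were, and 0 lower, where 0.0766% were, with 8 at an unadjusted p below 0.05. DESeq2 called 1 as lower, *XTH31* (log2FC -0.59, adjusted p = 0.0401). *EXPA16* had 4.98, 3.97 and 4.73 CPM in *hfr1-101*, against 1.11, 3.01 and 1.88 CPM in Col-0, a log2FC of 1.20 (SE 0.22, edgeR adjusted p = 0.00885). *XTH15* had 48.6, 45.4 and 38.3 CPM against 35.6, 22.1 and 27.6 CPM (log2FC 0.63, SE 0.13, edgeR adjusted p = 0.0219). Neither overlapped. *XTH15* lies over a gene on the other strand, AT4G14120. The paper names a stranded library kit, but the strand setting of the counting is not given in the sources used here. Reads of *XTH15* may thus in part belong to AT4G14120.

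Both calls were weak. *EXPA16* was lost without Col-0 LRFR 25 h replicate 1 (log2FC 0.91, adjusted p = 0.0535) or 3 (1.16, adjusted p = 0.0707) and without *hfr1-101* LRFR 25 h replicate 1 (1.13, adjusted p = 0.0566) or 3 (1.17, adjusted p = 0.0558). *XTH15* was lost without Col-0 LRFR 25 h replicate 2 (0.48, adjusted p = 0.104) or 3 (0.61, adjusted p = 0.103) and without *hfr1-101* LRFR 25 h replicate 1 (0.56, adjusted p = 0.18) or 2 (0.61, adjusted p = 0.0889). The fit of the 18 *hfr1-101* and Col-0 libraries lost both, at adjusted p of 0.0985 and 0.12. The interactions of *hfr1-101* with LRFR called 0.0% of all genes at LRFR 1 h and at LRFR 25 h in either direction, and 0 members by edgeR and DESeq2; 0 and 7 members had an unadjusted p below 0.05. Since *hfr1-101* and *pif457* were both set against the same Col-0 libraries, their comparisons are not independent.

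Genes that make or trim xyloglucan, and those that acidify the wall, were counted beside the members. Of all genes, 1.42% rose and 0.685% fell at LRFR 1 h in Col-0, and 2.38% rose and 1.66% fell at LRFR 25 h. Of 13 xyloglucan synthesis genes, 0 were called at LRFR 1 h in Col-0 (edgeR) and 1 fell at LRFR 25 h, the xylosyltransferase *XXT1*, with 18.9, 16.5 and 20.1 CPM against 30.4, 26.2 and 27.7 CPM (log2FC -0.60, SE 0.09, adjusted p = 3.4e-05). In *pif457* the glucan synthase *CSLC4* was lower than in Col-0 in each light (log2FC -0.42 in HRFR, then -0.49 and -0.33 after 1 h and 25 h of LRFR), and the galactosyltransferase *XLT2* was lower at LRFR 1 h and LRFR 25 h (-0.56 and -0.41). Of 3 trimming genes 1 was called, *XYL1*, the wall xylosidase that removes xylose from xyloglucan. It had 384, 352 and 451 CPM at LRFR 1 h, against 188, 208 and 207 CPM under HRFR in Col-0, a log2FC of 0.98 (SE 0.09, edgeR adjusted p = 5.56e-08). In *pif457* it had 168, 190 and 197 CPM at LRFR 1 h, against 153, 159 and 169 CPM under HRFR, and the response differed from that of Col-0 by -0.77 (SE 0.13, edgeR adjusted p = 0.000945). Of 11 proton pump genes, 9 were tested and 0 were called in Col-0 against HRFR in either light. *AHA1* and *AHA11* were slightly lower in *pif457* than in Col-0 at LRFR 25 h (-0.17 and -0.28). The weakly expressed *AHA4* was lower at LRFR 25 h than at LRFR 1 h in Col-0 (-0.68, edgeR adjusted p = 0.0159). In *hfr1-101* it was lower at LRFR 25 h than under HRFR (-0.73, edgeR adjusted p = 0.00614).

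Of 32 further expansin, expansin-like and XTH genes, 15 had enough reads to be tested. At LRFR 25 h in Col-0 2 of them rose and 0 fell, where 2.38% of all genes rose and 1.66% fell. The 2 were the expansin-like *EXLB1* and the XTH gene *XTH13* (log2FC 0.99 and 1.03). *XTH13* had 13.1, 7.33 and 5.71 CPM at LRFR 25 h, against 6.13, 2.92 and 3.68 CPM under HRFR, which overlapped, and the highest value of each group came from the replicate 1 that stood apart with high root markers. *EXLB1* was also higher at LRFR 25 h in *pif457* (0.78) and in *hfr1-101* (0.97), and it was lower in *pif457* than in Col-0 at LRFR 25 h (-0.81, SE 0.19, edgeR adjusted p = 0.00985). At LRFR 1 h 0 of the 15 were called in Col-0 (edgeR), where 1.42% of all genes rose and 0.685% fell. Set against LRFR 1 h in Col-0, LRFR 25 h had 3 of the 15 higher and 1 lower, where 2.66% and 2.36% of all genes were. In *pif457* the expansin-like *EXLA1* rose at LRFR 1 h, with 20.6, 17.0 and 18.3 CPM against 10, 10.2 and 9.81 CPM under HRFR (log2FC 0.89, edgeR adjusted p = 0.0423). Under HRFR it was lower in *pif457* than in Col-0, which had 19.4, 14.4 and 18.6 CPM (log2FC -0.80, edgeR adjusted p = 0.0197).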

How the data were processed

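After trimming with cutadapt and removal of ribosomal and low-complexity reads, the authors used STAR for alignment to TAIR10 and HTSeq for counting. Versions and strand setting: not given in the sources used here. The deposited values are raw counts per gene for 27 libraries of 3 genotypes in 3 lights. Reads in no gene (6.15 to 7.09%) were left out.

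Counts were filtered with filterByExpr, scaled by TMM and fitted with 9 group means (18 residual degrees of freedom) in edgeR 4.0.16 (R 4.3.3). Light comparisons were called at adjusted p below 0.05 and log2FC beyond 0.6, genotype comparisons and interactions at adjusted p below 0.05, all over 20887 genes. SE was the log2FC over the root of F. The script was tested on simulated data. Alternatives were DESeq2 1.42.0, other size factors, no filter, smaller fits, a replicate block, no fold threshold, each library left out and both Col-0 libraries that stood apart left out.

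Gene IDs and start regions came from RefSeq TAIR10.1; the count table holds no coordinates. Protein sequences were not used here. Most members called in Col-0, in *pif457* against Col-0 or by interaction are given per library, the rest by log2FC or range. Promoters were shown for up to 4 rising members that hold a motif. The members and lists were chosen with earlier results of these data known. Precision is limited by 3 pools of seedlings per group, with a common biological coefficient of variation of 0.0943, and by counting error in *EXPA16*, *XTH20* and *XTH25*.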

Additional observations from a re-analysis of the deposited data

Results flagged for a closer look

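The response of *EXPB1* to LRFR 1 h differed between *pif457* and Col-0 by the test of the difference itself, with an interaction of -0.7463 on the log2 scale (SE 0.13, edgeR adjusted p = 0.00148). In *pif457* the change at LRFR 1 h was -0.09 (SE 0.10), against 0.65 (SE 0.09) in Col-0. It was the only member whose interaction passed the threshold.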

How the results depend on the processing

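Of the 52 calls of a member in a comparison, 22 held in all 34 alternatives, 30 were lost in at least 1 and 0 reversed; 38 pairs not called were called by some alternative. The counts of called members that moved were these. Without the fold threshold, LRFR 1 h against HRFR in Col-0 had 7 calls in place of 4, LRFR 25 h in Col-0 10 in place of 6, LRFR 25 h in *pif457* 1 in place of 0, LRFR 1 h in *hfr1-101* 6 in place of 3, and LRFR 25 h against LRFR 1 h in Col-0 14 in place of 9. DESeq2 gave 1 in place of 0 for LRFR 25 h in *pif457*, 6 in place of 3 for *pif457* against Col-0 in HRFR, and 2 in place of 1 for the *pif457* interaction at LRFR 1 h. Over all genes DESeq2 called 373 higher and 570 lower for *pif457* against Col-0 in HRFR, in place of 210 and 353. A fit of only the groups compared gave 2 in place of 6 for LRFR 25 h in Col-0, 2 in place of 1 for LRFR 1 h in *pif457*, 1 in place of 0 for LRFR 25 h in *pif457*, 5 in place of 12 for *pif457* against Col-0 at LRFR 25 h, 2 in place of 1 and 1 in place of 0 for the *pif457* interactions at LRFR 1 h and LRFR 25 h, and 0 in place of 2 for *hfr1-101* against Col-0 at LRFR 25 h; it has fewer libraries to set the spread. Over all genes that fit called 253 higher and 163 lower for LRFR 25 h in Col-0, in place of 497 and 347. For *pif457* against Col-0 at LRFR 25 h it called 118 and 207, in place of 591 and 844. For the *pif457* interactions it called 119 and 191 at LRFR 1 h, in place of 183 and 243, and 6 and 29 at LRFR 25 h, in place of 24 and 72. The called members, at 2 in place of 1 and 1 in place of 0, are too few to compare with these counts. The fit of 18 libraries gave 0 in place of 1 and 1 in place of 0 for *pif457* at LRFR 1 h and LRFR 25 h, and 0 in place of 2 for *hfr1-101* against Col-0 at LRFR 25 h. Without both Col-0 libraries that stood apart the counts were 1 in place of 0 for LRFR 25 h in *pif457*, 1 in place of 3 and 7 in place of 4 for *pif457* against Col-0 in HRFR and LRFR 1 h, 2 in place of 1 for the *pif457* interaction at LRFR 1 h, and 1 in place of 0 for *hfr1-101* against Col-0 at LRFR 1 h. With 1 library left out at a time the counts ranged from 3 to 7 for LRFR 1 h in Col-0, 0 to 1 for LRFR 1 h and for LRFR 25 h in *pif457*, 2 to 5 for LRFR 1 h in *hfr1-101*, 0 to 7 and 6 to 14 for *pif457* against Col-0 in HRFR and at LRFR 25 h, 1 to 5 for the *pif457* interaction at LRFR 1 h, and 0 to 3 for *hfr1-101* against Col-0 at LRFR 25 h. Over all genes, *pif457* against Col-0 without both Col-0 libraries that stood apart had 105 higher and 229 lower in HRFR, in place of 210 and 353. At LRFR 1 h it had 615 higher and 664 lower, in place of 376 and 504. No count over all genes is given beside several member counts, such as those without the fold threshold or with 1 library left out. Those counts are not a result about the members. The smaller fits and left-out libraries used fewer samples, but the cause of the moves was not tested in any setting. The replicate block gave 2 in place of 1 for the *pif457* interaction at LRFR 1 h and changed no other call (53 against 52); same-numbered libraries deviated together in 26 of 108 pairs (correlation over 0.1) and 13 of 27 libraries correlated best with their own number, so the numbers were not taken as pairs.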
